A study of Mus musculus with 42 samples.

Results

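A group of 7 genes of the oocyte NLRP family was followed through early mouse cleavage: Nlrp4a, Nlrp4b, Nlrp4c, Nlrp4e, Nlrp9a, Nlrp9b and Nlrp9c. They were chosen by name from the Nlrp4 and Nlrp9 genes of the RNA-seq table, 7 of its 15737 genes. Nlrp4g, on chromosome 9 and annotated as a transcribed pseudogene, is also in that table and was not among them. The study collected embryos of ICR mice from superovulated females crossed to ICR males. It sequenced amplified cDNA of 3 embryos per library, with 2 libraries named for each of 9 groups. Early 2-cell embryos were taken at 34 h after hCG, late 2-cell embryos at 48 h and 4-cell embryos at 58 h. At the late 2-cell stage the groups were control (late-2-cell-con), FK866 at 0.01 µM, FK866 with NMN at 10 µM (late-2-cell-FK866-NMN), TSA at 10 nM, and Sirt1. At the 4-cell stage they were control (4-cell-con), FK866 and FK866-NMN at the same doses. FK866 inhibits NAMPT, the enzyme that makes NAD+ from nicotinamide, NMN is the product of that enzyme, and TSA (trichostatin A) inhibits histone deacetylases. The group named Sirt1 is described in the methods as a depletion in zygotes, by an siRNA together with Trim21 mRNA and an antibody against SIRT1, an NAD+-dependent deacetylase. Its stated control was a scrambled siRNA with Trim21 mRNA and that of the compounds was DMSO, while the labels hold 1 late 2-cell control for all of them. The ages of the embryos rest on hours after hCG.

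NLRP proteins carry an N-terminal pyrin domain, a nucleotide-binding NACHT domain and leucine-rich repeats. Several are parts of inflammasomes in immune cells, but rodents have a further branch, including the Nlrp4 and Nlrp9 genes, that arose by tandem duplication and is transcribed mostly in oocytes. Such transcripts are stored in the egg and are degraded in the course of the first cleavages, when the embryo's own transcription begins. Nlrp5 (Mater) and Nlrp2 of the same branch act with Ooep, Tle6, Khdc3 and Padi6 in the subcortical maternal complex of the egg cortex, and Nlrp9b has also been described as a sensor of viral RNA in gut epithelium. For the individual Nlrp4 genes less is known.

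All 7 genes lie on chromosome 7 of GRCm38, and they are close relatives. Nlrp9c (26322473 to 26403700, minus strand), Nlrp4a (26435113 to 26476142) and Nlrp9a (26535023 to 26575615) are neighbours, Nlrp4e (23301192 to 23362277) lies beside Nlrp5, and Nlrp4c (6045161 to 6105150), Nlrp4b (10687789 to 10730168) and Nlrp9b (19991465 to 20073306) stand apart from them; all but Nlrp9c are on the plus strand. The longest coding transcripts of GENCODE M21 were 76.9% to 93.2% identical among the Nlrp4 genes, 82.8% to 88.0% among the Nlrp9 genes and 46.5% to 50.3% between an Nlrp4 and an Nlrp9 gene. Nlrp4c and Nlrp4e were the closest pair. Of all stretches of 100 bases in a gene's transcripts, 11.5% of those of Nlrp4e occur unchanged in transcripts of another gene, nearly all of them predicted genes, against 2.11% for Nlrp9b, 0.844% for Nlrp4c, 0.82% for Nlrp9a, 0.229% for Nlrp9c and 0 for Nlrp4a and Nlrp4b. How reads that match several genes were counted is not given in the sources used here, so the level of Nlrp4e is the least certain.

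The promoters are shown to let the relatives be compared by sequence. Each line gives the 150 bases before the annotated start in RefSeq, build GRCm38.p6, 5′ to 3′ on the gene's strand, with every CCAAT, on either strand, in capitals. The stretches are chr7:26534873-26535022 (Nlrp9a, plus strand), chr7:26403701-26403850 (Nlrp9c, minus strand), chr7:26435464-26435613 (Nlrp4a, plus strand, before the inner of its annotated starts), chr7:10687643-10687792 (Nlrp4b, plus strand) and chr7:6045011-6045160 (Nlrp4c, plus strand).

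Nlrp9a: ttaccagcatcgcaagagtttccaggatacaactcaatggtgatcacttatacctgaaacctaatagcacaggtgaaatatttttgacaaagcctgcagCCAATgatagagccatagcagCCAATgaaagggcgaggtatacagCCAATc

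Nlrp9c: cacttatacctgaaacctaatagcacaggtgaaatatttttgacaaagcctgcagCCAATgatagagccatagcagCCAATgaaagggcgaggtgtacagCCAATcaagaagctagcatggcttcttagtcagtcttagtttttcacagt

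Nlrp4a: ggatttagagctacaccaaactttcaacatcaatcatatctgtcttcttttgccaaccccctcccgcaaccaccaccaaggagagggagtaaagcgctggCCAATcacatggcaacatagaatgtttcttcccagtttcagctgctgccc

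Nlrp4b: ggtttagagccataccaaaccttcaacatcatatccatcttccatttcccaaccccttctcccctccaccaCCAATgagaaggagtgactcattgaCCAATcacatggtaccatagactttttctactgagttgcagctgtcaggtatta

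Nlrp4c: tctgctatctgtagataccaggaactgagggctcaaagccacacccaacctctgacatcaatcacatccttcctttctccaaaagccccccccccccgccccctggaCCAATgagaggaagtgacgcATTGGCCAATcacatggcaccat

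Nlrp9a and Nlrp9c each had 3 copies of CCAAT in the same order, and over the 203 bases that could be aligned before their starts 96.1% were identical. Nlrp4c had 3 copies, 1 of them read on the opposite strand, Nlrp4b had 2 and Nlrp4a had 1. Nlrp4e, Nlrp9b and the outer start of Nlrp4a had none in this window, and for Nlrp9b RefSeq and GENCODE place the first start differently. Of 32475 RefSeq promoters of the same length, 24.4% held CCAAT at least once and 1.21% held it 3 times or more, counting both strands. CCAATCACATGG was taken as the longest run with a CCAAT common to windows of Nlrp4a, Nlrp4b and Nlrp4c. Its presence in these genes was thus fixed by the choice. It stood in 0.0185% of all promoters, 6 windows. Of those, 4 belong to these genes, with overlapping windows for Nlrp4b, and the others to Dcxr and Oscp1. The E-box CANNTG occurred in 47.6% of all promoters and in these windows of all members but Nlrp4e, and TAATTG in 4.08% of all and in Nlrp9b. These motifs were chosen after the sequences had been seen, and a match is a description of letters, not a site.

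The deposited table holds FPKM, fragments per kilobase of exon scaled to library size, in 1 column per group. Multiplied by exon length, 96.92% to 97.78% of the values in a column fell on whole reads, with a tolerance of 1.2 times the rounding of the 10 digits printed, and this separated 7 columns into a pair of libraries each, here called A (more reads) and B (fewer reads), while 1 library each was found under the headers 4-cell-FK866 and 4-cell-FK866-NMN. The 16 libraries had 3169677 to 10003481 reads. Levels below are FPKM per library, and all 7 members could be separated in every column. Embryos with fewer cells and embryos with less RNA per cell cannot be told apart in such libraries, and whether libraries of a group came from separate litters is not stated, so any p-value measures only the spread between these libraries.

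Headers and the paper's tables disagree on the group of 5 columns. Values in those tables match the columns headed late-2-cell-TSA, late-2-cell-Sirt1 and 4-cell-con for 4-cell control (47 of 47 genes equal within 0.01%), 4-cell FK866 (84 of 84) and 4-cell FK866-NMN (80 of 80). The direction of listed changes placed late 2-cell TSA in the column headed 4-cell-FK866 (1203 of 1203 genes) and late 2-cell Sirt1 in that headed 4-cell-FK866-NMN (773 of 821). All columns share 1 control in that check, and the other columns matched 522 to 1096 of the TSA genes, 546 of them under its own header, and 430 to 703 of the Sirt1 genes, 442 under its own header, so the second placement is the weaker. Headers and tables named the same group for the other 4 columns as far as the tables cover them, and the early 2-cell column is named by its header alone. Comparisons are therefore given by the headers, and, where the columns are in doubt, by the tables as well.

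Marker genes were read from the columns in the same way. The median of 22 measured oocyte genes was 3.22 to 12.5 FPKM in the columns headed late-2-cell-TSA, late-2-cell-Sirt1 and 4-cell-con and 33.8 to 185 FPKM in the other 6, and that of 16 genes of the 2-cell stage, led by Zscan5b, Zfp352 and Zscan4d, was 0.486 to 1.86 FPKM against 3.74 to 17.5 FPKM. Single genes went against these medians: Zscan5b was at 182.6 to 248.1 FPKM in those 3 columns and at 3.50 FPKM in early 2-cell embryos, and Dppa3 had its highest levels in those 3, at 3256 to 3654 FPKM. Sirt1, the gene targeted in the Sirt1 group, was at 86.6 and 66.2 FPKM in the late 2-cell control libraries, at 32.4 and 73.1 FPKM in the column headed late-2-cell-Sirt1 and at 11.3 FPKM in that headed 4-cell-FK866-NMN. It was also low in the column headed 4-cell-FK866 (7.61 FPKM) and at the early 2-cell stage (13.5 and 6.18 FPKM), so a low level was not particular to 1 column. Of 10 measured markers of cumulus and granulosa cells, at most 2 reached 1 FPKM in any column, and they summed to 1.22 to 12.7 FPKM. The highest of those sums was that of the column headed 4-cell-FK866, where Cyp19a1 was at 8.12 FPKM and Vim at 3.51 FPKM, Star averaged 0.528 FPKM, and Foxl2 and Ptx3 were at 0 in all columns but 1 each.

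At the early 2-cell stage the family was among the abundant transcripts: the median member was at 113.8 FPKM, a level that 2.15% of all genes reached. Nlrp4a was the highest, at 172.4 and 214.7 FPKM in libraries A and B. Nlrp4e followed at 146.2 and 154.6 FPKM, and Nlrp9c at 133.9 and 144.9 FPKM. The libraries of these 3 genes did not overlap, although those of Nlrp4e and Nlrp9c nearly met. Nlrp9a was at 92.6 and 135.1 FPKM and overlapped both Nlrp9c and the next gene, Nlrp9b, at 83.8 and 101.0 FPKM. Nlrp4b was lower, at 49.1 and 75.0 FPKM. Nlrp4c was far below all of them, at 4.56 and 5.00 FPKM, or 103 and 93 reads. Together the 7 genes took 3000 and 3629 of every 1000000 reads.

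**Figure D1:**
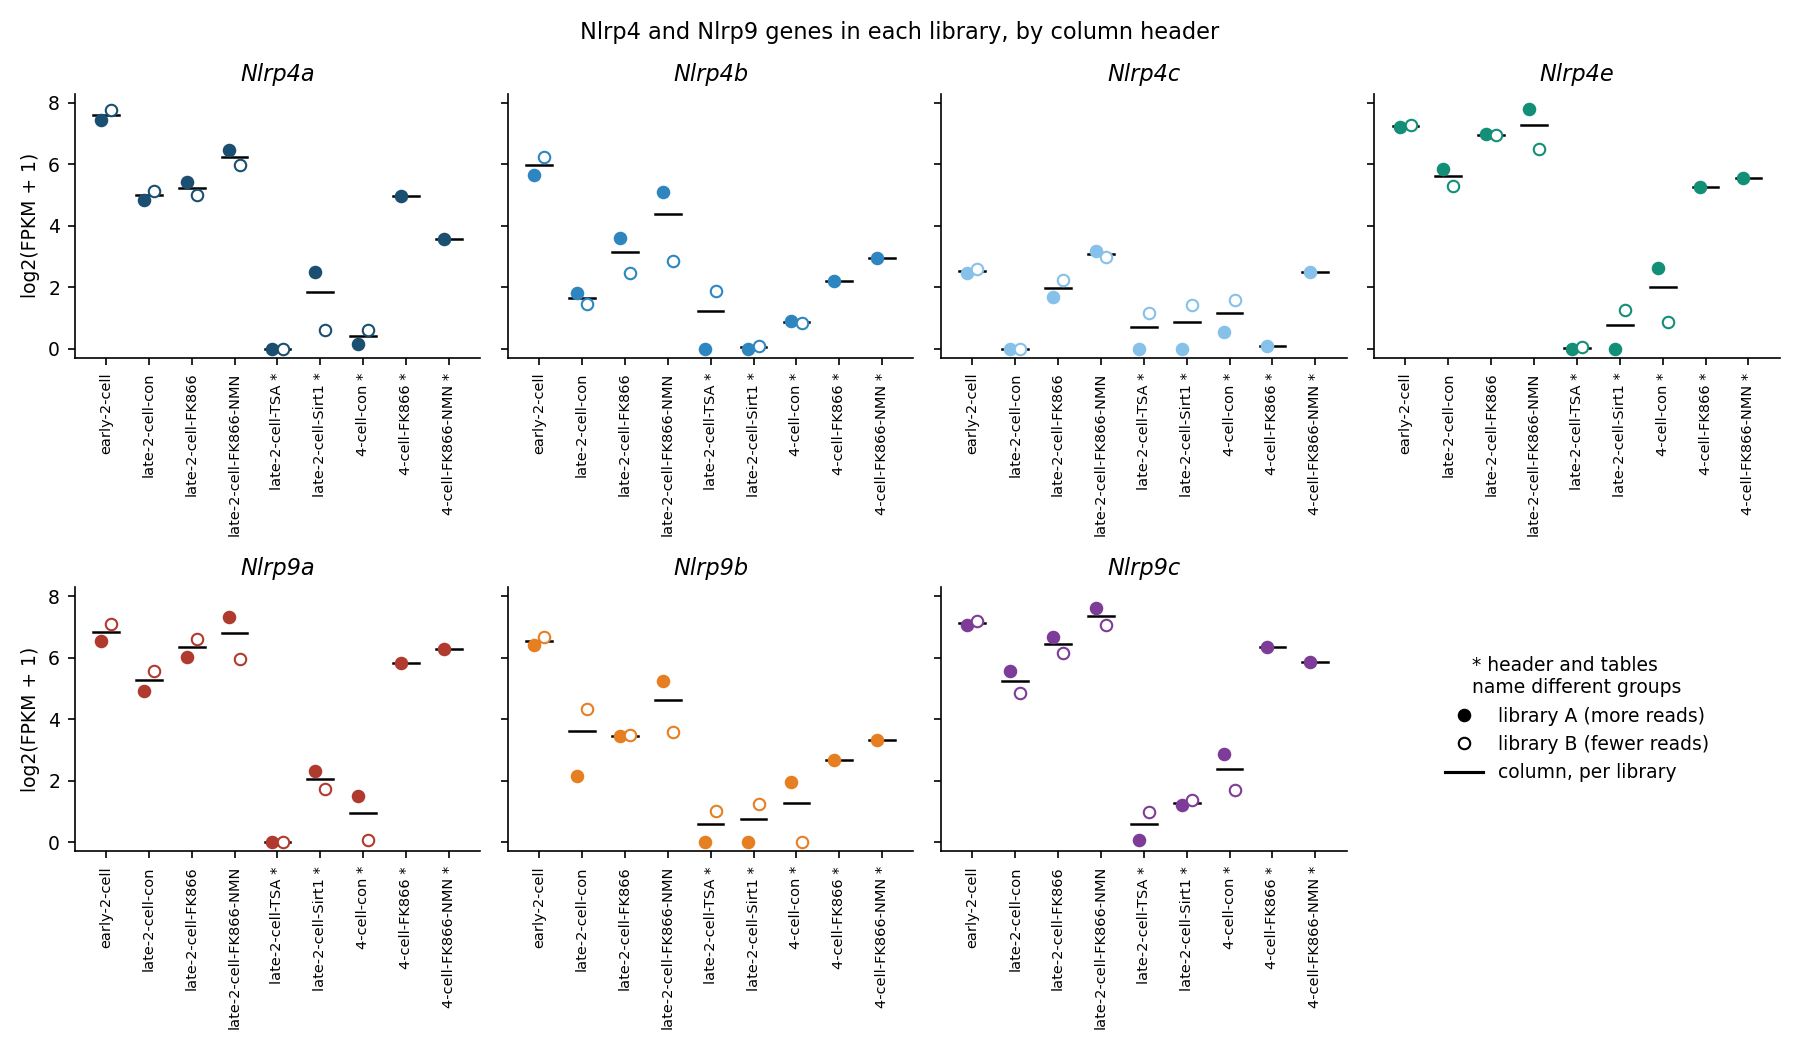
Levels of the 7 genes by library. Each panel is a gene, the x axis the 9 columns by header (an asterisk marks those whose header and tables name different groups) and the y axis log2(FPKM + 1), with filled points for library A, open points for library B and a line for the column. The highest column of each gene is early-2-cell or late-2-cell-FK866-NMN, and no column line exceeds 4.25 FPKM under the headers late-2-cell-TSA, late-2-cell-Sirt1 and 4-cell-con.

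The first comparison asked how the transcripts changed between the early and the late 2-cell stage in control embryos. All 7 genes were lower at the late stage, by 3.01-fold to 29.2-fold where reads remained, and no library of the late stage reached the early stage. Nlrp4a stood at 27.4 and 34.3 FPKM, 6.28-fold lower. Nlrp4b stood at 2.49 and 1.76 FPKM, 29.2-fold lower. Nlrp4c had 0 reads in both libraries, which with 3 reads over the column as the limit is at least 68.2-fold lower. Thus the Nlrp4 genes differed widely in what was left. Nlrp4e, the most abundant of the 7 by column at the late stage, stood at 57.0 and 38.2 FPKM, 3.16-fold lower. Nlrp9a was at 29.4 and 46.3 FPKM, 3.01-fold lower, and Nlrp9c at 46.6 and 27.9 FPKM, 3.74-fold lower. The last of the Nlrp9 genes, Nlrp9b, was 8.197-fold lower, and its libraries, at 3.46 and 19.1 FPKM, differed 5.52-fold. At this stage neighbours in the order Nlrp4e, Nlrp9a, Nlrp9c and Nlrp4a overlapped in their libraries, although Nlrp4a lay below both libraries of Nlrp4e.

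A change past 2-fold downwards was met by 7 of 7 members, against 31.7% of the 9514 genes that reached 1 FPKM in either column, and non-overlapping libraries by 7 of 7, against 34.2%. The median log2 fold change of FPKM + 1 was −2.53, beside −0.003 over all genes tested. In a limma fit to the 16 separated libraries, an analysis added after the data had been seen, 5 of 7 members fell at a Benjamini-Hochberg adjusted p under 0.05 over 10367 genes, against 7.89% of all genes. Nlrp4b fell by 4.31 ± 0.84 on the log2 scale (limma, SE, adjusted p = 0.00590, range over alternatives 0.00173 to 0.0670). Nlrp4a fell by 2.61 ± 0.60 (limma, adjusted p = 0.0130, range 0.000916 to 0.0979), and Nlrp9c by 1.92 ± 0.52 (limma, adjusted p = 0.0301, range 0.00620 to 0.179). Nlrp9b and Nlrp4c also fell, at adjusted p = 0.0341 and 0.0272 in limma, whereas Nlrp4e (adjusted p = 0.119) and Nlrp9a (adjusted p = 0.110) did not pass. The number of calls rested on few libraries: without early library B none of the 7 was called, and without early library A 1 was. Leaving out late control library A or B left 2 or 3 calls.

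**Figure D2:**
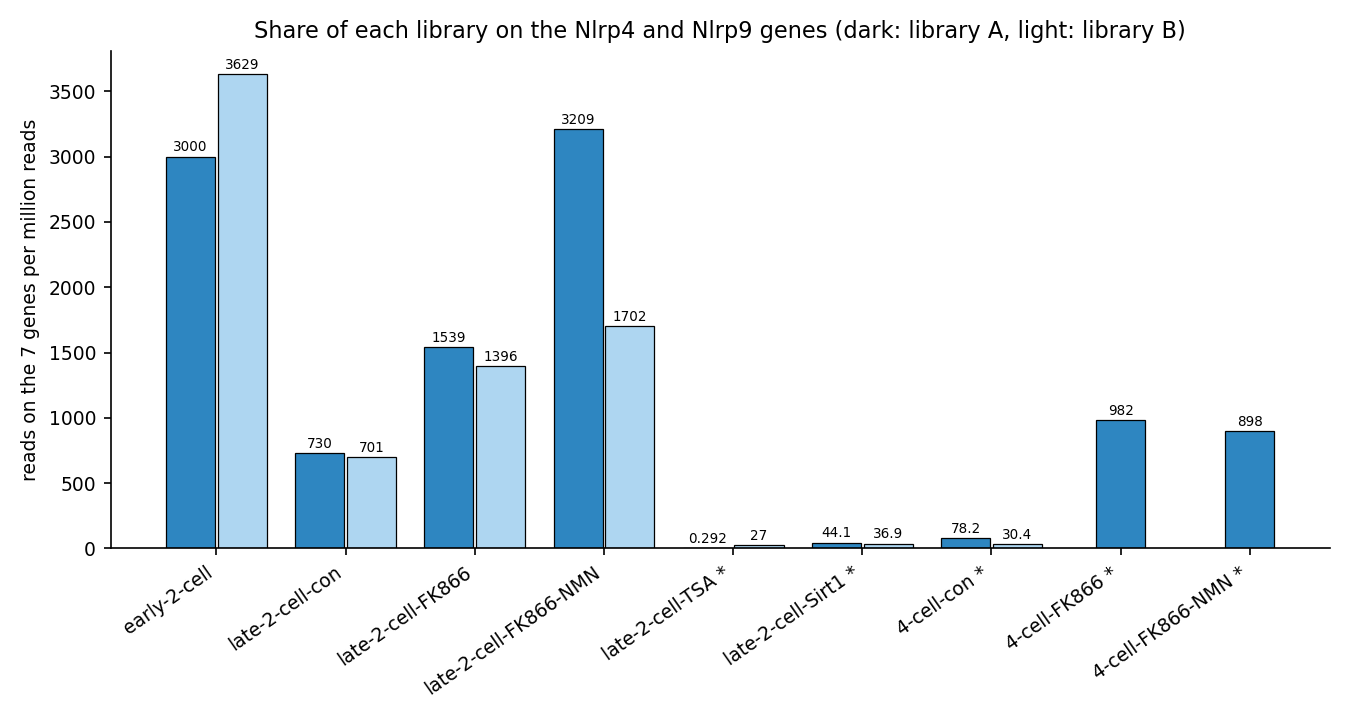
Reads on the 7 genes in every 1000000 reads of a library. The x axis gives the 9 columns by header, the y axis that number of reads, and each bar is a library, dark for A and light for B. The share is 3000 and 3629 at the early 2-cell stage, 730 and 701 in late 2-cell controls, and no more than 78.2 in the columns headed late-2-cell-TSA, late-2-cell-Sirt1 and 4-cell-con.

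Inhibition of NAMPT by FK866 was the next question. In late 2-cell embryos given FK866 the 7 genes summed to 346.6 FPKM, 2.08 times the 166.9 FPKM of the controls, and took 1539 and 1396 of every 1000000 reads in place of 730 and 701. Of the 7, 5 were higher, with all treated libraries above all control libraries, and Nlrp4a and Nlrp9b were not. Nlrp4e was at 125.0 and 122.1 FPKM, 2.60 times the control level. Nlrp9a was at 63.4 and 97.7 FPKM, 2.13 times the control level, and Nlrp9c at 100.4 and 70.3 FPKM, 2.29 times. These 3 members, the least reduced in controls, made up most of the summed difference. Nlrp4b was at 11.2 and 4.55 FPKM, 3.70 times the control level. Nlrp4c, without a read in controls, had 79 and 121 reads, 2.20 and 3.71 FPKM, at least 42.2-fold higher. Nlrp4a was at 41.6 and 31.0 FPKM and its libraries overlapped the controls. Nlrp9b was at 10.0 and 10.1 FPKM, between its control libraries.

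Past 2-fold upwards were 5 of 7 members, against 18.1% of 9022 genes tested, and 5 of 7 had non-overlapping libraries, against 16.3%. The median log2 fold change of the members was 1.18, beside −0.065 over all genes. No member passed in limma (0 of 7, against 0.26% of all genes upwards and 0.116% downwards), with adjusted p from 0.367 for Nlrp4c to 1.0, and 2 of 7 had an unadjusted p under 0.05. Those were Nlrp4c, at 1.96 ± 0.67, and Nlrp9c, at 1.198 ± 0.523 (log2, SE). The share of all genes at that unadjusted threshold is not given here, so the count is not a result about the members. Relative to the early 2-cell stage, the members stood at 10.9% to 82.1% of their level, with a median of 61.2%, where the controls had a median of 15.9%.

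Addition of NMN asked whether the level returned towards the control. The summed level of these genes did not come nearer to it: in FK866-NMN embryos it was 555.4 FPKM, 3.33 times the controls and 1.60 times FK866 alone. The libraries summed to 741.2 and 369.5 FPKM, and without library A the ratios were 2.21 and 1.07. Both libraries of Nlrp4c, at 7.98 and 6.95 FPKM, lay above the early 2-cell libraries. Nlrp9c was at 196.1 and 132.7 FPKM, 4.41 times the control level. Nlrp4e was at 221.5 and 89.1 FPKM and Nlrp9a at 158.7 and 61.2 FPKM, so each spanned its FK866 level. Nlrp4a was at 87.0 and 62.3 FPKM, above all FK866 and control libraries. Nlrp4b, at 33.2 and 6.20 FPKM, and Nlrp9b, at 36.7 and 11.1 FPKM, differed most between libraries. In each of the 7 genes library A was the higher, by 1.15-fold to 5.35-fold, and these libraries held 3209 and 1702 reads on the family in every 1000000.

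Against controls, 7 of 7 members were past 2-fold upwards, where 21.0% of 8639 genes were, and 6 of 7 had non-overlapping libraries, where 10.7% did. The median log2 fold change was 1.69, beside −0.351 over all genes. Limma called 2 of 7 higher, against 0.656% of all genes: Nlrp4c rose by 3.08 ± 0.67 (log2, SE, adjusted p = 0.0309, range over alternatives 0.0230 to 0.0839) and Nlrp9c rose by 2.13 ± 0.52 (limma, adjusted p = 0.0497, range 0.0200 to 0.209). No member was called without either control library, without either early library or without FK866-NMN library A, and 3 were without FK866-NMN library B. Against FK866 alone, 4 of 7 were past 2-fold upwards (18.9% of all genes), 4 of 7 had non-overlapping libraries (9.49% of all genes) and the median was 1.02, beside −0.242 over all genes. Limma called 0 of 7 there (0.299% of all genes upwards and 2.09% downwards), with adjusted p from 0.429 to 1.0, and 0 of 7 had an unadjusted p under 0.05. For that unadjusted count no share over all genes is given here. Without FK866-NMN library A that median was 0.13, and 3 of 7 members turned below 0: Nlrp4b from 1.22 to −0.30, Nlrp4e from 0.33 to −0.47 and Nlrp9a from 0.45 to −0.39.

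**Figure D3:**
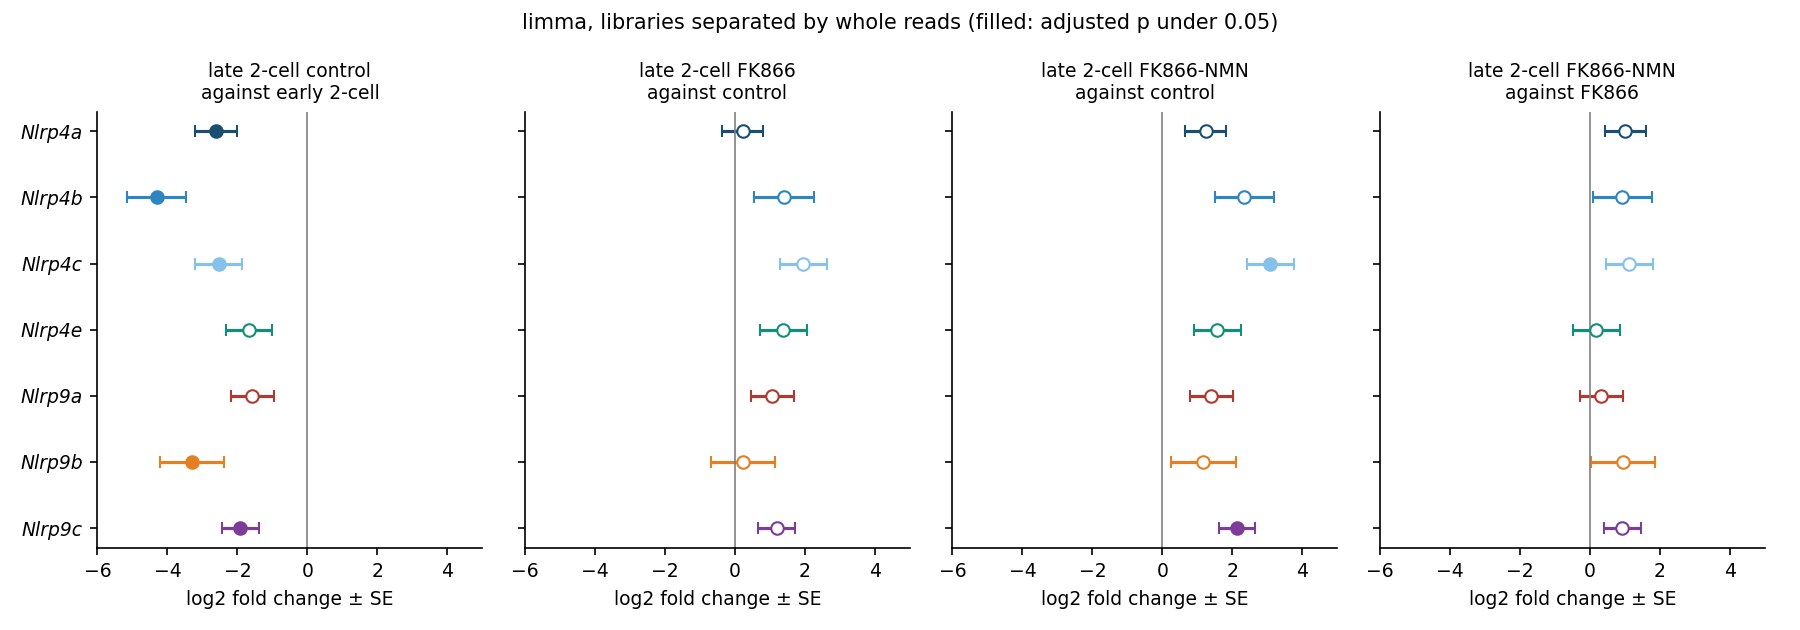
Log2 fold changes of the 7 genes in the comparisons whose columns are not in doubt. Each row is a gene, the x axis is the limma log2 fold change of FPKM + 1, bars are ± 1 SE, and filled points have an adjusted p under 0.05. All 7 estimates lie below 0 for late against early 2-cell, from −4.31 to −1.57, and above 0 in the other 3 panels.

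The 3 columns headed late-2-cell-TSA, late-2-cell-Sirt1 and 4-cell-con had almost none of these transcripts, and the tables name all of them as 4-cell embryos. In the column headed late-2-cell-TSA the family summed to 3.03 FPKM. Nlrp4a and Nlrp9a had 0 reads there, Nlrp4e had 0 and 1 read, and Nlrp9c, the gene with the most reads at the early stage after Nlrp4a, had 2 and 38. Library A of that column held 2 reads on all 7 genes among 6855134, and library B held 176 among 6527679. In the column headed late-2-cell-Sirt1 the sum was 9.43 FPKM, of which Nlrp4a had 226 and 8 reads and Nlrp9a 138 and 26. The column headed 4-cell-con summed to 12.0 FPKM, led by Nlrp9c at 6.25 and 2.25 FPKM and Nlrp4e at 5.21 and 0.824 FPKM. Nlrp4c was the exception among the 7. Its level in these columns, 0.631, 0.826 and 1.22 FPKM, was above its level of 0 in the late 2-cell controls. It had 0 and 33, 0 and 21, and 10 and 37 reads. Thus library A of the columns headed late-2-cell-TSA and late-2-cell-Sirt1 was at 0, as were the controls.

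Both columns with an FK866 header at the 4-cell stage stood far above those 3, with sums of 212.6 and 211.3 FPKM. In the first of them Nlrp9c was at 80.9 FPKM, Nlrp9a at 55.7 FPKM, Nlrp4e at 36.9 FPKM and Nlrp4a at 30.2 FPKM. Nlrp9b was at 5.33 FPKM and Nlrp4b at 3.57 FPKM, while Nlrp4c had 1 read. In the second Nlrp9a led at 77.1 FPKM, followed by Nlrp9c at 56.9 FPKM and Nlrp4e at 45.9 FPKM. Nlrp4a was at 10.9 FPKM, Nlrp9b at 8.98 FPKM, Nlrp4b at 6.77 FPKM and Nlrp4c at 4.70 FPKM, or 130 reads. With 1 library a column, the order within them has no replicate check.

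For 4-cell against late 2-cell controls, both readings gave lower levels. By the headers 5 of 7 members were past 2-fold lower, against 33.8% of 8868 genes, and 6 of 7 had non-overlapping libraries downwards, against 28.1%. The exception was Nlrp4c, at least 17.5-fold higher and the 1 member past 2-fold upwards, against 24.2%, or with non-overlapping libraries upwards, against 28.1%. Limma called 4 of 7 lower (4.71% of all genes): Nlrp4a by 95.3-fold, Nlrp9a by 39.9-fold, Nlrp4e by 15.8-fold and Nlrp9c by 8.77-fold, with adjusted p from 0.00342 for Nlrp4a to 0.00973 for Nlrp9c. By the tables, 5 of the 6 members that reached 1 FPKM were past 2-fold lower, against 41.3% of 8648 genes, 5 of those 6 had non-overlapping libraries downwards, against 31.5%, and limma called 4 of 7, against 8.4% of all genes. Nlrp4a was then at least 666-fold lower and Nlrp9a at least 588-fold lower, Nlrp9c 72.3-fold and Nlrp9b 21.9-fold. The median log2 fold change was −2.87 by the headers and −4.83 by the tables, beside −0.208 and −0.442 over all genes. Limma called Nlrp4a, Nlrp4e, Nlrp9a and Nlrp9c under both readings, and under neither Nlrp4b, Nlrp4c or Nlrp9b. Without 4-cell-con library B, 2 of the 4 calls by the headers remained in number.

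For the inhibition of deacetylases by TSA the readings were opposed. By the headers the comparison with late 2-cell controls uses the same columns as that just given for 4-cell controls by the tables, with the same 4 calls. By the tables the treated column is 1 library, so it has no replicate check and limma assumes that it varies like the others. Nlrp4a, at 30.2 FPKM, and Nlrp9b, at 5.33 FPKM, each lay between their control libraries. Nlrp4e, at 36.9 FPKM, was just below both of its control libraries. Nlrp9c, at 80.9 FPKM, was 2.17 times the control level and the member past 2-fold upwards, 1 of the 6 that reached 1 FPKM, against 30.1% of 9420 genes. Non-overlapping libraries were met upwards by 3 of those 6 and downwards by 1, against 43.4% and 31.1%. No member was called by limma (0 of 7, against 3.95% of all genes upwards and 2.55% downwards), 0 of 7 had an unadjusted p under 0.05, and adjusted p ranged from 0.376 to 1.0. For the unadjusted count no share over all genes is given here. The median was 0.26 by the tables and −4.83 by the headers.

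Depletion of Sirt1 likewise depended on the column. By the headers 6 of the 6 members that reached 1 FPKM were past 2-fold lower than the controls, against 36.6% of 8779 genes, all 6 with non-overlapping libraries, against 29.5%, and limma called 4 of 7, against 6.31% of all genes. Nlrp4e was then 68.4-fold lower, Nlrp9c 25.8-fold, Nlrp9a 12.0-fold and Nlrp4a 11.9-fold, with adjusted p in limma from 0.00243 for Nlrp9c to 0.0101 for Nlrp9a. By the tables the treated column is again 1 library, and 3 of 7 were past 2-fold higher, against 16.4% of 8622 genes, and 1 was lower, against 28.2%. Nlrp4c was at least 67.1-fold above the controls, Nlrp4b 3.18-fold and Nlrp9a 2.04-fold, while Nlrp4a was 2.83-fold lower. The 1 treated library lay above both controls for 4 of 7, against 32.1%, and below both for 1, against 32.9%. Limma called 0 of 7, against 0.444% of all genes upwards and 0.0675% downwards, with adjusted p from 0.311 to 1.0 and 1 of 7 at an unadjusted p under 0.05. The unadjusted count has no share over all genes beside it. The median was −3.19 by the headers and 0.60 by the tables, beside −0.285 and −0.213 over all genes.

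At the 4-cell stage the question was whether FK866 kept the transcripts above the control. By the headers the treated column is 1 library, without a replicate check, and 6 of 7 members were past 2-fold higher, against 41.8% of 9368 genes, and 6 of 7 lay above both control libraries, against 51.0%. Nlrp4c, with 1 read, was the 1 member past 2-fold lower, against 32.9%, and below both controls, against 36.8%. The median log2 fold change was 3.24, beside 0.422 over all genes. With that library assumed to vary like the others, limma placed 4 of 7 past the threshold upwards, against 12.0% of all genes. The estimate was 5.03 ± 0.75 for Nlrp9a (log2, SE, limma adjusted p = 0.00193, range over alternatives 0.000896 to 0.0136), 4.58 ± 0.73 for Nlrp4a (limma, adjusted p = 0.00257, range 0.00118 to 0.0158), 4.08 ± 0.64 for Nlrp9c (limma, adjusted p = 0.00249, range 0.000781 to 0.0237) and 3.50 ± 0.82 for Nlrp4e (limma, adjusted p = 0.0146, range 0.00818 to 0.0922). These p-values take the spread of the treated arm from other columns. A test of the difference between stages gave a larger FK866 effect at the 4-cell than at the late 2-cell stage for 2 of 7 members by the headers, against 4.74% of all genes and resting on the same single library, with Nlrp4c in the other direction (−2.94 ± 1.06, limma adjusted p = 0.124, range over alternatives 0.0920 to 0.292). It did so for 0 of 7 by the tables, against 0.0% in either direction, with 0 of 7 at an unadjusted p under 0.05. No share over all genes is given for that unadjusted count.

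By the tables the 4-cell FK866 levels were low but not at 0. Nlrp9a was at 3.96 and 2.36 FPKM, against 0 reads in the controls, at least 49.1-fold higher. Nlrp4a was at 4.67 and 0.521 FPKM against 0, at least 56.0-fold higher, with libraries that differed 8.95-fold. Of the 4 members that reached 1 FPKM in either column, 2 were past 2-fold higher, against 21.2% of 7420 genes, and 1 was past 2-fold lower, against 13.4%. That was Nlrp4b, with 0 and 1 read in place of 0 and 79. Non-overlapping libraries upwards were met by 3 of those 4, against 20.8%. Limma called 0 of 7, against 0.116% of all genes upwards and 0.00965% downwards, with adjusted p from 0.451 to 1.0 and 2 of 7 at an unadjusted p under 0.05. The unadjusted count has no share over all genes beside it. The median was 1.27, beside 0.10 over all genes.

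NMN at the 4-cell stage was compared with FK866 alone. By the headers both columns hold 1 library, so their difference is a value without a test, and it had 1 of 7 members past 2-fold higher (25.0% of 8929 genes), Nlrp4c, and 1 lower (34.7%), Nlrp4a by 2.77-fold. By the tables, 2 of the 6 that reached 1 FPKM were higher (14.8% of 7754 genes), Nlrp4e and Nlrp9c, and 2 lower (11.5%), Nlrp4a and Nlrp9a. By the tables, where both groups have a pair of libraries, adjusted p in limma was 1.0 for all, with 0 of 7 called (0.0772% upwards and 0.00965% downwards) and 0 of 7 at an unadjusted p under 0.05. Libraries did not overlap for 1 of those 6 upwards, against 18.8%, and for 1 downwards, against 14.6%. A limma test of the difference of the NMN effect between stages by the tables called 0 of 7. Of all genes, 0.232% were called upwards and 0.0% downwards. An unadjusted p under 0.05 was met by 1 of 7, Nlrp4a at −2.19 ± 0.84 (log2, SE). For neither of these unadjusted counts is a share over all genes given here.

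**Figure D4:**
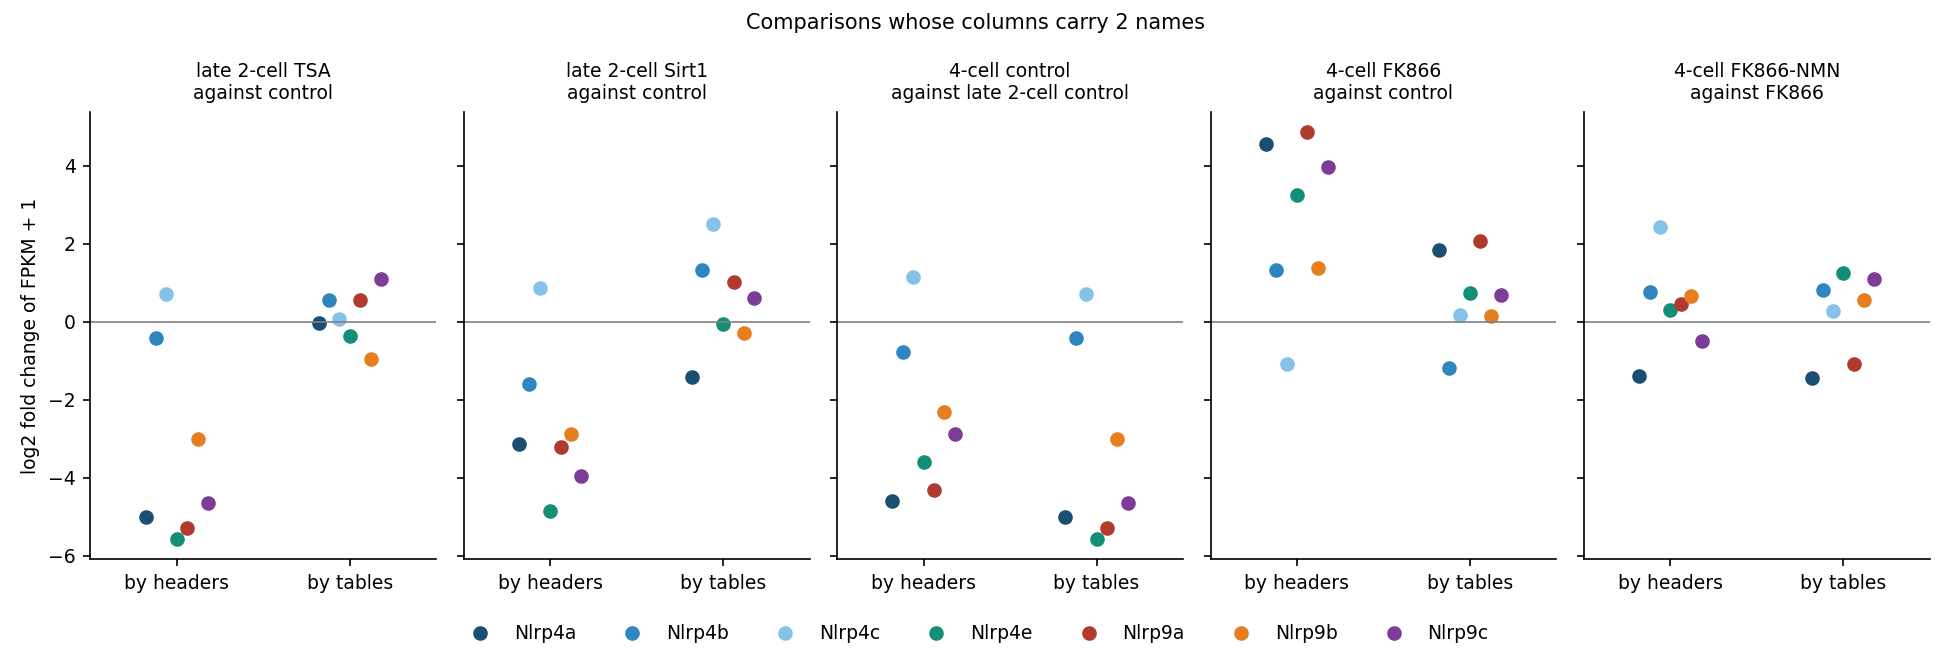
Log2 fold changes of the 7 genes in the comparisons whose columns carry 2 names. Each point is a gene, the y axis is the log2 fold change of FPKM + 1 between columns, and each panel sets the values by the headers beside those by the tables. For TSA and Sirt1 most genes lie well below 0 by the headers and on both sides of 0 by the tables, while 4-cell against late 2-cell control lies below 0 under both for all genes but Nlrp4c.

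The members followed similar profiles over the libraries. Over the 16 libraries Pearson's r of log2(FPKM + 1) had a median of 0.861 over the 21 pairs of members, from 0.489 for Nlrp4a and Nlrp4c to 0.984 for Nlrp4e and Nlrp9c. Nlrp4c had the lowest values with each of the others. These libraries share stage, treatment and column, and no test was made of the correlations. Within the family, the neighbours Nlrp4a and Nlrp9a had r = 0.942 and Nlrp9a and Nlrp9c had r = 0.960. Nlrp4e and Nlrp9c, the pair with the highest r, had promoters 47.2% identical over only 127 aligned bases. Those of Nlrp9a and Nlrp9c were 96.1% identical over 203. Whether likeness of promoters goes with r was not tested.

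The 5 genes below were picked as most like the mean profile of the members over the 9 columns, among 7551 that reached 10 FPKM in any column. They were Tacc2 (r = 0.995), Lsm10 (r = 0.993), Nlrp4g (r = 0.991), Usp46 (r = 0.991) and Cnot6l (r = 0.991). Tacc2 encodes a coiled-coil protein of the centrosome and spindle, Lsm10 a subunit of the U7 particle that processes histone transcripts, Usp46 a deubiquitinase and Cnot6l a deadenylase of the CCR4-NOT complex. Cnot6l was at 130.0 FPKM at the early 2-cell stage, 19.9 in late 2-cell controls, 31.4 with FK866 and 67.6 with FK866-NMN. Nlrp4g, a relative on chromosome 9 annotated as a transcribed pseudogene in GENCODE, was at 197.0 and 167.2 FPKM in early 2-cell libraries and 13.7 and 29.0 FPKM in late 2-cell controls. These columns were part of the profile by which the 5 genes were picked. Their changes between the columns therefore follow from the choice and are no separate result.

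Other NLRP genes and the subcortical maternal complex gave a mixed picture. Of 8 other NLRP genes in the table, 5 reached 1 FPKM in the comparison of late with early 2-cell controls. Of these, 3 were past 2-fold lower, against 31.7% of 9514 genes, with a median of −1.60. Nlrp14 went from 700.4 to 144.5 FPKM and Nlrp5 from 80.7 to 26.0 FPKM. Nlrp2 went from 14.1 to 7.82 FPKM. Of the 7 measured genes of the complex and its partners, which include Nlrp2, Nlrp5 and Nlrp14, 3 were past 2-fold lower. The share over all genes was the same 31.7%, and the median of the 7 was −0.903. Ooep went from 719.9 to 26.8 FPKM, and Padi6 from 127.6 to 67.7 FPKM, while Tle6 (90.9 and 76.3 FPKM) stayed within 2-fold. Khdc3, at 4.53 and 4.19 FPKM, was the gene of this list with the highest level in the column headed late-2-cell-TSA, 13.9 FPKM.

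In the FK866 comparison at the late 2-cell stage these lists moved less than the members did in median. It was 0.425 for the other NLRP genes, with 1 of 5 past 2-fold higher, and 0.193 for the complex, with 0 of 7. The 1 was Nlrp4g, at 59.0 FPKM with FK866 and 21.3 FPKM in controls, 2.77-fold higher. Libraries did not overlap upwards for 3 of those 5 and 2 of those 7, against 16.3% of all genes. Downwards it was 0 and 1, without a share over all genes here. Nlrp14 and Ooep could not be separated into libraries in every column. Of 9022 genes, 18.1% were past 2-fold higher. Nlrp5 was at 36.0 FPKM with FK866 and 26.0 FPKM in controls, and Tle6 at 39.7 and 76.3 FPKM. With FK866-NMN against controls the medians were 0.297 for the other NLRP genes and −0.267 for the complex, beside 1.69 for the members. Past 2-fold higher were 2 of 6 and 2 of 7, against 21.0% of 8639 genes, and past 2-fold lower 1 and 0. For the downward counts no share over all genes is given here. Nlrp4g was at 142.4 FPKM and Ooep at 90.2 FPKM, above their controls at 21.3 and 26.8 FPKM. Nlrp5, at 21.5 FPKM, and Nlrp14, at 115.2 FPKM, were below their control levels. All 7 members were above theirs by column, with overlapping libraries for Nlrp9b. Limma called 0 of 5 in each list with FK866, against 0.26% of all genes upwards and 0.116% downwards. With FK866-NMN against controls it called 1 of 5 other NLRP genes higher, against 0.656% of all genes, and 0 of 5 of the complex. That gene was Nlrp4g, at 2.75 ± 0.64 (log2, SE, limma adjusted p = 0.0398). It called 0 lower in either list. The difference between lists was not tested. Of 22 oocyte genes, 3 were past 2-fold higher with FK866, against that 18.1%, with a median of 0.060. Another 5 were past 2-fold lower, for which no share over all genes is given here. Among the most abundant of them, Dppa3, which protects the maternal genome from demethylation, was at 1630 FPKM with FK866 and 2058 FPKM in controls, Omt2b at 2561 and 2676 FPKM, and Oog3 at 2730 and 2259 FPKM.

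Few of the measured partners of NLRP proteins in inflammasomes reached 1 FPKM. Of 12 such genes listed, 8 were measured, and nothing can be said of the rest. Of the 8, 1 to 3 reached 1 FPKM in a column, and they summed to 1.81 to 31.0 FPKM. Txnip, a thioredoxin-binding protein, led at 17.0 FPKM in early 2-cell embryos and 8.37 FPKM in late 2-cell controls, followed by Nek7 at 9.16 and 1.14 FPKM. Il18 was at 0.706 and 0 FPKM. In late 2-cell embryos with FK866 and with FK866-NMN, Txnip was at 14.3 and 23.1 FPKM and Nek7 at 7.29 and 7.30 FPKM. Il18 was at 0 in both.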

How the data were processed

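The RNA-seq data comprise 18 samples in 9 groups; 24 H3K27ac samples of the series were not used here. Per the methods and the submitters' processing notes, the authors used CASAVA 1.4, Trim Galore, HISAT2 on mm10, then featureCounts, and DESeq2 for their tests. The authors deposited FPKM values, 1 column per group, for chromosomes 1 to part of 11, so no value was used as a count. The last row is cut and was left out, as were symbols listed more than once, which left 15737 genes, 15356 with an exon length in GENCODE M21. Values multiplied by exon length gave the reads of each library. Columns of 2 libraries were divided by 2. The separation was tested on simulated columns, where 99.91% (late-2-cell-FK866-NMN, 7478 genes) or more of the genes were separated correctly.

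The planned value is the log2 fold change of FPKM + 1 between columns over genes at 1 FPKM or more in either, without p-values. A limma fit (trended, 1 mean per column, 10367 genes with 1 FPKM in at least 2 libraries, 7 residual degrees of freedom, Benjamini-Hochberg adjustment) was added after the data had been seen. Zero reads were bounded by 3 reads over the column, which covers counting error only. The alternatives comprised other pseudocounts (0.1 or 5), a higher filter at 5 FPKM or none, undivided values, median centring, each library left out, and columns read by the tables. The members and lists were chosen with earlier results of these data known. Named are all members, the 5 genes with the highest r to their mean profile, other NLRP and complex genes that reached 10 FPKM, and of other lists the 3 with the highest mean; Sirt1, Foxl2 and Ptx3 were named after their values were seen. Transcripts were aligned with MAFFT. R 4.3.3, limma 3.58.1, Python 3.11.15, pandas 2.3.3, numpy 2.4.6 and matplotlib 3.10.9 were used.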

Additional observations from a re-analysis of the deposited data

Results flagged for a closer look

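With columns read by their headers, 2 members passed a test of the difference of the FK866 effect between stages. The 4-cell FK866 column is then 1 library, so the test takes its spread from other columns and the difference has no replicate check. The effect of FK866 on Nlrp4a was estimated larger at the 4-cell than at the late 2-cell stage by 4.36 ± 0.94 (log2, SE, limma interaction, adjusted p = 0.0226, range over alternatives 0.0104 to 0.0650). For Nlrp9a the difference was 3.96 ± 0.97 (limma, adjusted p = 0.0363, range 0.0161 to 0.107). Of all genes, 4.74% passed upwards. By the tables the differences were 1.33 ± 0.84 for Nlrp4a (limma, adjusted p = 0.816) and 0.96 ± 0.87 for Nlrp9a (limma, adjusted p = 0.838), and no gene of the 10367 passed.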

How the results depend on the processing

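Most values kept their direction and side. Read by the tables, the medians became 0.259 for TSA and 0.599 for Sirt1 (both reversed, with 0 members called), −4.825 for 4-cell control, and 1.268 for 4-cell FK866 with 0 called; among single members Nlrp9a and Nlrp9c turned to 0.546 and 1.098 (TSA), Nlrp4b, Nlrp9a and Nlrp9c to 1.313, 1.008 and 0.599 (Sirt1), and Nlrp4b to −1.181 (4-cell FK866). A pseudocount of 5 FPKM gave medians of −1.773 (late against early), 0.852 (FK866), −2.889 (TSA) and −2.315 (Sirt1). A pseudocount of 0.1 gave −7.099 (TSA) and −3.957 (Sirt1), and 1 call for late against early, 0 for FK866-NMN against control and 2 for 4-cell against late 2-cell control. A minimum of 5 FPKM gave −2.244 for late against early, over 6 members, since Nlrp4c was left out by construction. Members with 0 reads set to 3 reads over the column gave −2.43 for late against early and −4.79 for TSA. With each library left out, medians ran from −2.584 to −2.282 (late against early, 0 to 5 calls), 0.899 to 1.581 (FK866, 0 calls), 0.125 to 1.191 (FK866-NMN against FK866, 0 calls), 0.991 to 2.194 (FK866-NMN against control, 0 to 3 calls), −5.090 to −4.271 (TSA, 4 to 5 calls), −3.534 to −2.926 (Sirt1, 3 to 4 calls), −3.617 to −2.685 (4-cell control, 2 to 4 calls) and 3.054 to 4.347 (4-cell FK866, 3 to 4 calls). With libraries left out, Nlrp4b ran from −0.299 to 1.947 against FK866 and Nlrp9b from −0.021 to 2.48 against control, both lowest without FK866-NMN library A, which also took Nlrp4e to −0.468 and Nlrp9a to −0.389 against FK866. Other causes of these moves were not tested. No paired analysis was possible because the columns carry no replicate numbers. Depth limits members near 0: 3 reads over a column are 0.0296 to 0.188 FPKM.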
